A study of Mus musculus with 12 samples.

Results

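AP-1 is a family of dimeric transcription factors, and this account covers the RNAs of 10 of its genes and close relatives: *Fos*, *Fosb*, *Fosl1*, *Fosl2*, *Jun*, *Junb*, *Jund*, *Atf3*, *Maff* and *Batf3*. They were taken by name from a table of 13232 genes. The rule used no measured value, but it was set with earlier results of these data known. The table gave values for 9 of the 10, and *Fosl1* was not analysed here. The RNA came from macrophages grown out of the bone marrow of wild-type C57B6/J mice fed either a normal diet (ND, 3 libraries) or a high-fat diet (HFD, 3 libraries). All 6 cultures had received the macrophage growth factor M-CSF at 20 ng/ml, had been in serum-free medium since day 4 and were held at 1% oxygen for 1 h on day 7. The labels used here do not give the animals' age, the time on diet, or whether the replicates were separate mice, so the p-values measure the spread between these libraries, which may be technical. Libraries of the same cells at normal oxygen were not analysed here, and every value below is therefore a level after 1 h of hypoxia and not a response to it.

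FOS and JUN proteins pair through a leucine zipper and bind short DNA elements near their target genes. JUN proteins can pair with themselves or with each other, whereas FOS proteins need a partner, commonly a JUN protein. *Fos*, *Fosb*, *Jun*, *Junb* and *Atf3* are classic immediate early genes, switched on within minutes by growth factors, cytokines, stress and microbial products without new protein synthesis, and their RNAs are short-lived. *Jund* and *Fosl2* change more slowly. In macrophages the family takes part in inflammatory gene expression, tissue remodelling and, under other growth factors, the formation of osteoclasts.

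The members' genes are spread over 7 chromosomes (positions from GENCODE M21, mm10). *Fos* (ENSMUSG00000021250) lies at chr12:85473890-85477273 on the plus strand, *Fosb* at chr7:19302696-19310051 on the minus strand and *Fosl2* at chr5:32135801-32157842 on the plus strand. *Jun* (ENSMUSG00000052684), at chr4:95049034-95052222 on the minus strand, has a single exon. The principal transcripts of *Junb* (chr8:84974484-84978718, minus) and *Jund* (chr8:70698949-70700616, plus) are also single exons. *Atf3* (chr1:191170296-191218039, minus) and *Batf3* (chr1:191097847-191108945, plus) are neighbours, 61350 bases apart, and *Maff* lies at chr15:79346621-79359076 on the plus strand. Overlaps with opposite-strand genes touched *Jun* (antisense *Junos*, 689 bases), *Jund* (antisense *Gm11175*, 919 bases), *Atf3* (*Gm24748*, 108 bases) and *Junb* (*Prdx2*, 351 bases). The library kit keeps strand, but the sources used here do not say whether strand was used in counting, so reads in these overlaps are uncertain. *Prdx2* itself differed little between diets (log2 fold change 0.03, limma adjusted p 0.906).

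The sequences just upstream of 3 members are shown, from the 4 whose values did not overlap between the diets, as given further on. The window of the fourth, *Fosl2*, held none of the letters searched for and lies within an annotated exon of the gene, so it is not printed. Each is the 120 bases before a RefSeq transcript start (GRCm38.p6), read 5′ to 3′ on the gene's strand. Capitals mark the letters searched for on either strand: the cyclic AMP response element TGACGTCA and its core TGACGT, the AP-1 site TGACATCA known from the *Jun* promoter, the TATA box TATAAA, and GCGTG, a core of hypoxia response elements.
*Fos*, chr12:85473770-85473889, plus strand: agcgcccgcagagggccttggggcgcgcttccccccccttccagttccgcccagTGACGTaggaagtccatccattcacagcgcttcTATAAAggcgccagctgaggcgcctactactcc
*Jun*, chr4:95052223-95052342, minus strand: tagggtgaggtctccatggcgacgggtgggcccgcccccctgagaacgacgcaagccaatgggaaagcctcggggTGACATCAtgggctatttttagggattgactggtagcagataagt
*Maff*, chr15:79347400-79347519, plus strand, second of 3 listed starts: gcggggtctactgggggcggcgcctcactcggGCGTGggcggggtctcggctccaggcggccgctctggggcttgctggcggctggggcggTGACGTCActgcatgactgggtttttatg

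The *Fos* window held TGACGT from 66 bases before the start, the place where CREB and ATF proteins are known to bind, and TATAAA from 33 bases before it. The *Jun* window held TGACATCA from 45 bases before the start, the element through which JUN and ATF2 proteins are known to act on the *Jun* gene itself. In *Maff*, TGACGTCA lay 29 bases before this start, and TGACATCA 45 bases before another. Over windows of 250 bases before the start, TGACGTCA was present in 1.77% of 27025 genes and in 1 of the 9 members (*Maff*). Its core TGACGT, which every TGACGTCA contains, was present in 7.29% of genes and in *Fos*, *Atf3* and *Maff*. TGACATCA was present in 3.41% of genes and in *Jun* and *Maff*, and TATAAA in 14.3% of genes and in *Fos*. The AP-1 pattern TGANTCA, where N is any base, was present in 7.82% of genes and had no match in these windows of the members. The CArG box bound by serum response factor (1.62% of genes) had none there either. Sequence farther upstream was not searched. GCGTG was found in 30.9% of genes and in *Fos*, *Junb*, *Atf3* and *Maff*, and the other hypoxia core, ACGTG, in 18.5% of genes and in *Jund*, *Maff* and *Batf3*. The RefSeq starts used lay 1210 bases from the GENCODE gene start for *Jund*, 34706 for *Atf3*, 671 for *Fosl2* and 567 for *Batf3*. The *Maff* starts with TGACGTCA and TGACATCA lay 899 and 1781 bases from it. These are matches of letters, and no binding was measured here.

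Sequencing depth was about 19046400 to 24491500 estimated reads per library. Each HFD library was deeper than each ND library before the authors' scaling. Macrophage markers were abundant in all 6 libraries: the 10 markers listed for them summed to 369741 to 423099 in ND and 366852 to 427534 in HFD, led by *Lyz2*. Of markers of other cells, 6 of 10 neutrophil genes had values (sums of 1712 to 2455 in ND and 2109 to 3430 in HFD), 6 of 8 osteoclast genes (2950 to 3700 and 3528 to 4062), 2 of 9 dendritic cell genes, 3 of 6 stromal genes (177 to 549 and 51.8 to 337), and 1 gene each for T cells and mast cells. The 3 stromal genes were lower in HFD on average with overlap (log2 fold changes of -1.33 for *Col1a1*, -1.04 for *Col1a2* and -1.45 for *Col3a1*), as was the T cell gene *Cd4* (-0.70). The mast cell gene *Kit* was lower without overlap (117 to 226 in ND and 72.4 to 104 in HFD, log2 fold change -0.88). None of these 5 had a limma adjusted p under 0.05 with equal weights. With the array weights described further on, *Kit* did, as did 8.56% of all genes. The part of these 5 in the results was not tested. The listed B cell and erythroid genes had no values in the table used here. On the first principal component, which carried 43.3% of the variance, ND replicate 3 (3.43) lay among the HFD libraries (1.33 to 11.4) and apart from the other ND libraries (-14.0 and -13.5). Results are therefore also given without it. As it was picked for its likeness to HFD in these data, wider differences between the diets in that fit are no independent support.

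After 1 h of hypoxia, *Atf3* was the most abundant member and *Fosb* the least in both diets. Levels between genes are compared here as the normalized count per kilobase of the gene's principal transcript. *Atf3*, a stress-induced repressor of many inflammatory genes, stood at 4265 ± 459 per kb in ND, against 4764 ± 254 in HFD (errors are the SD over n = 3 libraries, here and throughout). Below it, in ND, came *Junb* (1451 ± 113), *Jun* (1427 ± 56.9), *Jund* (1261 ± 248) and *Fos* (943 ± 143). In ND the 3 JUN genes did not differ from each other beyond their spread, and *Fos* and *Jund* lay close. *Fosl2* followed at 190 ± 22.9 per kb, and *Batf3* (74.6 ± 10.0), *Maff* (37.9 ± 3.18) and *Fosb* (12.6 ± 2.59) formed the low end. With the union of all annotated exons as the length instead, *Jun* (1427 per kb) ranked above *Jund* (1261) and *Junb* (1141) in ND, so the order among the JUN genes depends on the length used.

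The order was partly different in HFD. There *Junb* (1586 ± 67.0 per kb) and *Jund* (1521 ± 254) came next after *Atf3*, then *Fos* (1256 ± 51.1), and then *Jun* (1231 ± 33.9). With this length *Fos* and *Jun* did not differ beyond their spread in HFD, whereas with the exon union *Fos* (1125 ± 45.8) lay below *Jun* (1231 ± 33.9). In ND *Fos* was below *Jun* in each of the 3 libraries. In HFD, by the principal transcript, *Fos* was slightly below *Jun* in replicates 1 and 2 and above it in replicate 3. As a share of the summed level per kb of the 9 members, *Jun* made up 14.8% ± 1.26 in ND and 11.5% ± 0.379 in HFD, without overlap. *Fos* made up 9.77% ± 1.28 and 11.7% ± 0.711, with overlap, and *Atf3* 44.1% ± 1.34 and 44.5% ± 2.23.

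**Figure D1:**
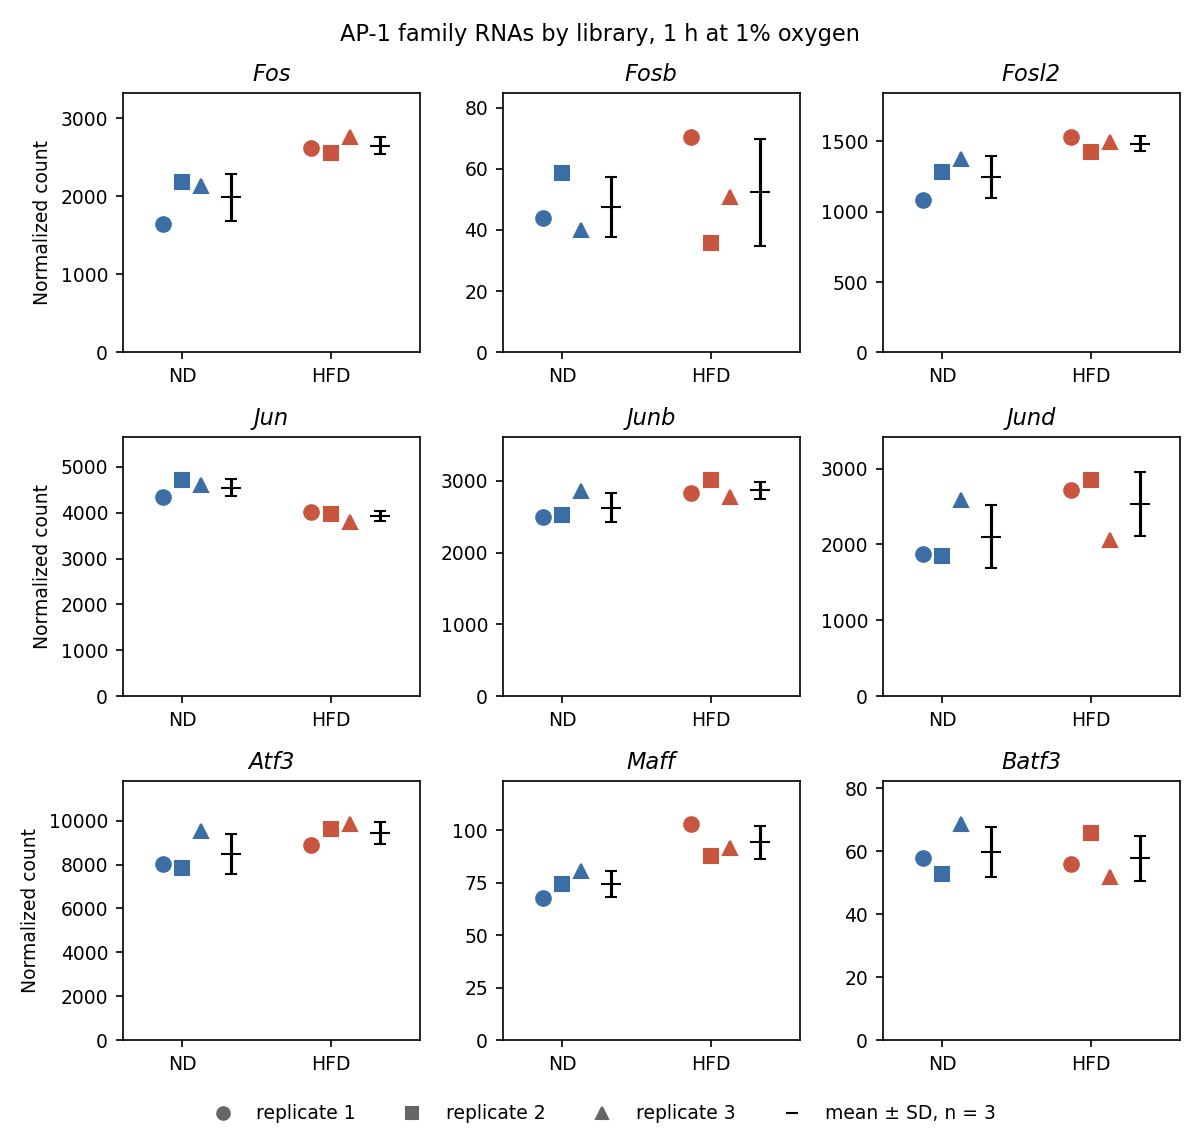
Normalized count (vertical axis, linear from 0, own scale per panel) of the 9 members in each ND (blue) and HFD (red) library, with symbols for the replicate number and the mean ± SD beside them. *Fos*, *Fosl2* and *Maff* lay higher in all 3 HFD libraries than in any ND library, *Jun* lay lower, and the other 5 members overlapped.

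The question put to the diets was whether a mouse's diet leaves a mark on the level of these factors in its cultured macrophages at low oxygen. Of the 9 members, 7 were higher on average in HFD and 2 lower, against 48.9% of all 13232 genes higher. None passed an adjusted p of 0.05 (limma with Benjamini-Hochberg adjustment over all genes), and neither did any of the 13232 genes (0%). At an unadjusted p under 0.05 there were 4 members, against 10.6% of all genes: *Fos*, *Fosl2* and *Maff* were higher (5.4% of all genes) and *Jun* was lower (5.18%). With 1 library left out this count ran from 2 members (without ND replicate 1 or HFD replicate 1) to 7 (without ND replicate 3), and that of all genes from 700 to 2309. The same 4 were the members whose diets did not overlap, against 14.5% of all genes (7.44% higher and 7.07% lower). The median log2 fold change of the 9 was 0.16 (all genes -0.0034; 0.25 for the 9 without ND replicate 3), and the median size without regard to direction 0.21 (all genes 0.092). Each fold change is a difference of log2(value + 1), a scale that understates the change of low genes. In bulk RNA, fewer cells of a type and less RNA per cell cannot be told apart.

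*Fos* had the largest log2 fold change of the members with all 6 libraries, but not without HFD replicate 3 (0.39, against 0.42 for *Jund*). In the order of the replicate numbers, which is kept below, its normalized counts were 1640, 2188 and 2136 (ND) and 2623, 2552 and 2764 (HFD). A gap of 364 separated the diets, and ND replicate 1 was the lowest by far. The means differed 1.33-fold, with a log2 fold change of 0.42 (SE 0.10), ranked 120 of 13232 by p. The limma adjusted p was 0.260, and over the alternatives it ran from 0.0149 to 0.860. *Fos* spread more in ND (SD 15.2% of the mean) than in HFD (4.07%), where counting error was about 2.07%.

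*Fosl2*, which encodes FRA-2, a FOS protein that lacks the strong activation domain of FOS, followed the same direction. Normalized counts of 1081, 1280 and 1373 in ND stood against 1534, 1424 and 1494 in HFD. The gap between the diets was narrow, 51.0, with ND replicate 3 and HFD replicate 2 nearest to each other. Its log2 fold change was 0.26 (SE 0.089, limma adjusted p 0.359), and 0.16 without ND replicate 1. *Fosb*, by contrast, was low and variable. Its counts were 43.9, 58.7 and 40.2 in ND and 70.5, 35.7 and 50.9 in HFD, so the HFD libraries held both the highest and the lowest value. Its log2 fold change of 0.10 (SE 0.27) was smaller than its error, and its sign turned in the fits that left out ND replicate 3 (-0.0093) or HFD replicate 1 (-0.14). At 34 to 72 estimated reads per library, counting error alone was about 14.1% for *Fosb*.

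*Jun*, the founding partner of FOS, went the other way. It had 4349, 4703 and 4595 normalized counts in ND and 4009, 3963 and 3803 in HFD. All ND libraries were above all HFD libraries, by at least 340, and the spread within a diet was the smallest of the members (3.99% and 2.76% of the mean). The HFD mean was 0.863 times that of ND, with a log2 fold change of -0.21 (SE 0.059, limma adjusted p 0.284). Without 1 library the value ran from -0.24 to -0.19. *Jun* and *Batf3* were the only members with a negative difference of means.

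*Junb*, often an antagonist of JUN in growth control, overlapped between the diets. Its counts were 2490, 2526 and 2861 in ND and 2826, 3005 and 2774 in HFD (log2 fold change 0.13, SE 0.071, limma adjusted p 0.575). *Jund*, the JUN gene expressed most constitutively, had the largest spread within a diet of the members with a mean over 1000 (SD 19.6% of the mean in ND and 16.7% in HFD). It stood at 1880, 1850 and 2580 in ND and 2713, 2844 and 2054 in HFD. In both genes ND replicate 3 was the high ND library, and in *Jund* HFD replicate 3 was far below the other HFD libraries. For *Jund* the log2 fold change was 0.27 (SE 0.15, limma adjusted p 0.568), and 0.43 without ND replicate 3.

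*Atf3* normalized counts were 8027, 7848 and 9508 in ND and 8881, 9635 and 9838 in HFD. ND replicate 3 lay within the HFD range and the other ND libraries below it. The log2 fold change was 0.16 (SE 0.084, limma adjusted p 0.544), and 0.25 without ND replicate 3. *Maff* encodes a small MAF protein, which has no activation domain of its own and pairs with factors such as NRF2. It was low but separated the diets, with 67.9, 74.3 and 80.3 in ND against 103, 87.8 and 91.7 in HFD. Its gap was 7.51, less than counting error at this level (about 10.9% of the value), and its log2 fold change 0.34 (SE 0.15, limma adjusted p 0.465). *Batf3*, required for cross-presenting dendritic cells, had 57.9, 52.8 and 68.5 in ND and 55.8, 65.6 and 51.8 in HFD. The diets overlapped fully (log2 fold change -0.047, SE 0.19), and the sign turned without ND replicate 3 (0.054) or HFD replicate 3 (0.027). Of the dendritic cell markers, *Irf8* and *Kmo* had values, with a summed level of 5443 to 5554 in ND and 4786 to 5831 in HFD. Most of that sum was *Irf8* (log2 fold change -0.028). *Kmo* was lower in HFD with overlap (209 ± 51.9 against 150 ± 36.8, log2 fold change -0.48, limma adjusted p 0.492).

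**Figure D2:**
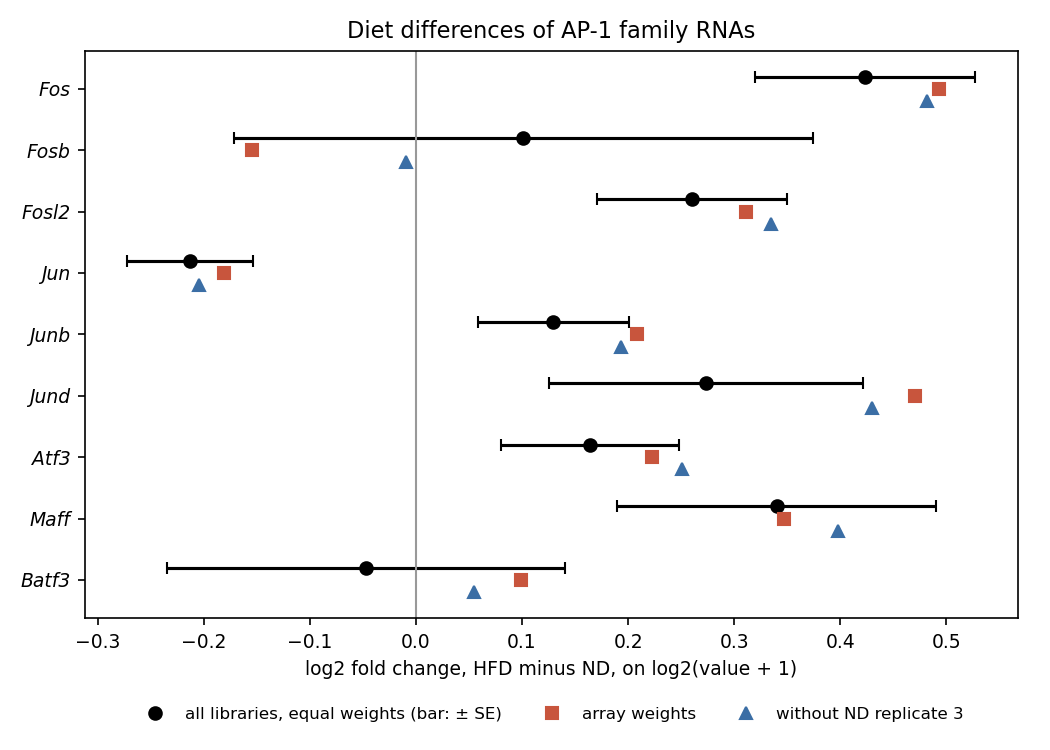
Log2 fold change, HFD minus ND, of each member (horizontal axis) with all libraries weighted equally (black, bar ± SE), with limma array weights (red squares) and without ND replicate 3 (blue triangles). *Fos*, *Fosl2*, *Junb*, *Jund*, *Atf3* and *Maff* stayed above 0 and *Jun* below 0 in these 3 fits, while *Fosb* and *Batf3* changed sign.

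The weight given to each library decided how many members passed. With limma array weights, which estimate each library's reliability from its spread, 5 of the 9 members had a limma adjusted p under 0.05, against 8.56% of all genes (4.54% higher and 4.02% lower). These were *Fos* (log2 fold change 0.49, limma adjusted p 0.0149), *Jund* (0.47, 0.0273), *Fosl2* (0.31, 0.0354) and *Junb* (0.21, 0.0478), which were higher in HFD, and *Jun* (-0.18, 0.0493), which was lower. The weights ran from 0.441 for ND replicate 3 to 1.91 for ND replicate 1 and 3.09 for HFD replicate 2. Without ND replicate 3, none of the 9 passed (1.76% of all genes did), the smallest limma adjusted p being 0.0649 for *Fos*. The diets then did not overlap for 7 members, against 35.9% of all genes, a share that was 14.5% with all 6 libraries. With each of the other libraries left out in turn, again no member passed.

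A ratio of members within a library does not depend on how libraries are scaled to each other, and *Fos* is therefore also given relative to *Jun*. The log2 ratio of *Fos* to *Jun* normalized counts was -1.41, -1.10 and -1.11 (ND) against -0.61, -0.63 and -0.46 (HFD). Every HFD library was above every ND library, with a mean difference of 0.64, a 1.55-fold higher ratio. ND replicate 3, which stood with HFD on the first component, had a *Fos* to *Jun* ratio next to that of ND replicate 2. The ratio of *Fosl2* to *Jun* was also separate (ND mean -1.88 ± 0.13, HFD mean -1.40 ± 0.066), as were those of *Junb*, *Atf3* and *Maff* to *Jun*. The ratio of *Jund* to *Jun* overlapped. *Jun* itself was lower in HFD, and the ratio to *Jun* was separate for 46.4% of all genes and higher in HFD for 45.8%, so that a separate ratio alone is not particular to these members. The log2 ratio of *Fos* to *Fosl2* was 0.67 ± 0.091 in ND and 0.83 ± 0.057 in HFD, with no overlap but with neighbouring libraries nearly equal. The ratio of *Fos* to *Junb* overlapped (-0.41 ± 0.20 and -0.12 ± 0.12). *Jun* was taken as the denominator after the values were seen, and these ratios are given as a description with no test.

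**Figure D3:**
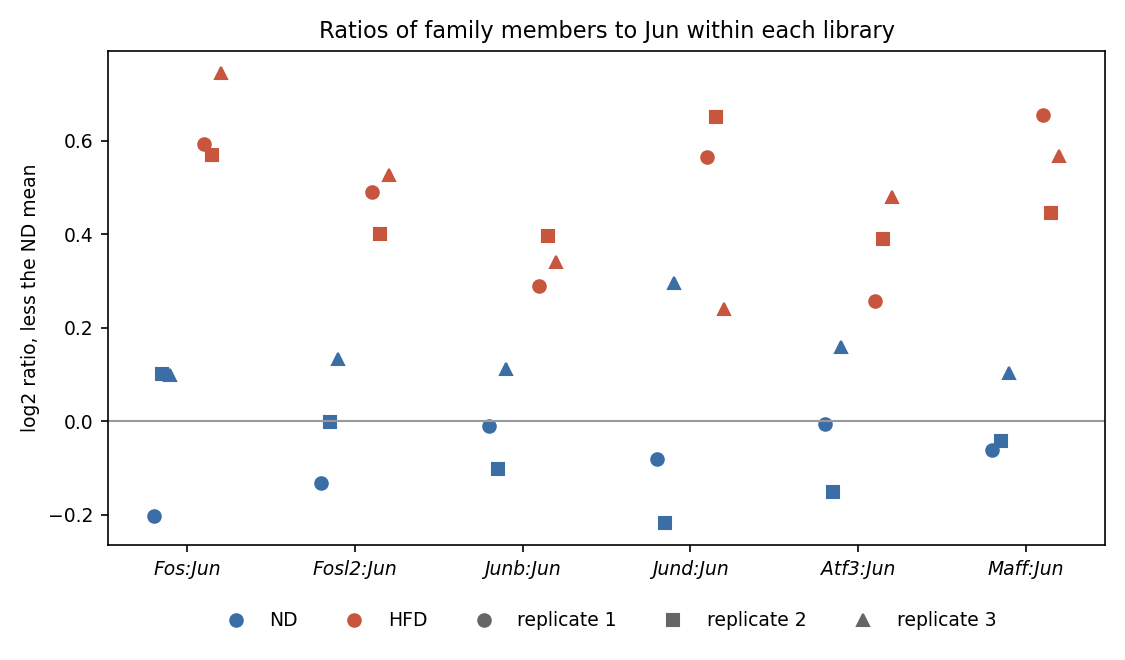
Log2 ratio of the normalized count of 6 members to that of *Jun* within each library, less the ND mean of that ratio (vertical axis), for ND (blue) and HFD (red) libraries. The diets do not overlap for 5 of the ratios and overlap for *Jund*.

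Across the 6 libraries the members did not follow a single pattern. In ND replicate 1, 8 of the 9 members were below their own mean over the libraries, *Jun* being the exception, and 4 members had their lowest value there. In ND replicate 2 there were 7 below, and in ND replicate 3 and the HFD libraries 6 or 7 were above. The members nearest to each other in pattern, by the root mean square difference of log2 values centred on each gene's mean, were *Junb* and *Atf3* (0.063) and *Fosl2* and *Maff* (0.068). *Fos* and *Fosl2* differed by 0.10, *Fos* and *Jun* by 0.34, and *Fosb* and *Jund* by 0.45, the most.

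Among 10794 genes whose mean was 100 or more, the genes nearest to *Fos* by the same measure were *Gstp1* (0.058), *Ifi27* (0.065) and *C5ar2* (0.084), against 0.25 for the size of the *Fos* pattern itself. Nearest to *Jun* were *Zfp623* (0.030), *Gm10288* (0.031) and *Cd81* (0.034), against 0.11 for *Jun*. Nearest to *Atf3* were *Tmem201* (0.021), *Map2k1* (0.022) and *Lrrc59* (0.024), against 0.13. With 6 libraries and so many genes, close matches are common, and the genes are named as a description.

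The relatives that pair with or compete with AP-1 had differences in both directions. Of 11 listed, 10 had values, 6 higher and 4 lower on average (median log2 fold change 0.051), and none had a limma adjusted p under 0.05 (3 at an unadjusted p, against 10.6% of all genes). Without ND replicate 3 there were 5 at an unadjusted p by limma, against 17.5% of all genes. Leaving out any other library gave 2 or 3. *Maf*, a large MAF factor of mature macrophages, had 16336, 16911 and 13970 normalized counts in ND and 14084, 12051 and 10853 in HFD. HFD replicate 1 was above ND replicate 3 by a little, and the rest were separate (log2 fold change -0.36, SE 0.11, limma adjusted p 0.305). *Jdp2*, a repressor that binds the same sites as AP-1, was at 85.8, 93.9 and 90.9 in ND and 117, 114 and 122 in HFD, without overlap (log2 fold change 0.38, SE 0.13, limma adjusted p 0.353). *Batf*, a relative of *Batf3*, was lower in HFD without overlap (56.2 ± 3.39 against 37.8 ± 8.82, log2 fold change -0.58), did not pass either, and was named after its values were seen. With array weights *Maf* was among the genes that passed (log2 fold change -0.40, limma adjusted p 0.0151).

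The kinases that switch on AP-1 had small differences for the most part. Of 24 genes of the MAP kinase cascade, 11 were higher and 13 lower (median log2 fold change -0.0097, median size 0.085, that of all genes being 0.092), with 2 at an unadjusted p, a share near the 10.6% of all genes, and 0 at a limma adjusted p under 0.05. With 1 library left out this unadjusted count ran from 1 to 4. It was 4 without ND replicate 3 (17.5% of all genes then) or HFD replicate 1 (12.6%). The 2 with all libraries were *Map3k5* and *Map2k6*. *Map3k5*, which encodes the stress kinase ASK1, had 810, 729 and 735 normalized counts in ND and 626, 584 and 611 in HFD. All HFD libraries were below all ND libraries (log2 fold change -0.32, SE 0.074, limma adjusted p 0.239). *Map2k6*, a kinase upstream of p38, was low at 94.8, 79.2 and 73.2 in ND and 52.9, 45.4 and 69.9 in HFD (log2 fold change -0.56, SE 0.20, limma adjusted p 0.378). The diets were separate here as well, by little. The kinases *Mapk3* (0.064), *Mapk8* (0.081), *Mapk9* (0.12) and *Mapk14* (-0.050) had small log2 fold changes, all with limma adjusted p-values of 0.599 or above.

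Of the factors known to act at the *Fos* and *Jun* promoters, none passed the threshold with equal weights. All 12 listed genes had values, 4 higher and 8 lower (median log2 fold change -0.033), and 0 were under 0.05 even at an unadjusted p by limma (10.6% of all genes were). With array weights 1 of the 12, *Mef2c*, passed (log2 fold change -0.28, limma adjusted p 0.0343; 8.56% of all genes did). At an unadjusted p by limma there were then 4 of the 12, against 27.6% of all genes, and without ND replicate 3 there were 2, against 17.5%. *Srf*, the serum response factor, had a log2 fold change of 0.12 (limma adjusted p 0.695). *Mef2c* (4656 ± 519 in ND, 4081 ± 256 in HFD, log2 fold change -0.19, limma adjusted p 0.503) and *Mrtfb*, an actin-regulated partner of SRF (2377 ± 64.3 in ND, 2671 ± 296 in HFD, difference 0.16, limma adjusted p 0.535), had the smallest p. *Mef2c* was -0.11 without ND replicate 2, and *Mrtfb* 0.081 without HFD replicate 3.

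Genes for the turnover of AP-1 proteins and RNAs were likewise close. Of 11, 8 were higher and 3 lower (median log2 fold change 0.027), with 1 at an unadjusted p, a share near the 10.6% of all genes, and 0 at a limma adjusted p under 0.05. That gene was *Zfp36*, which encodes tristetraprolin, a protein that speeds the decay of AU-rich RNAs such as that of *Fos*. *Zfp36* had 3860, 4237 and 3656 normalized counts in ND and 3545, 3238 and 3504 in HFD, lower in HFD without overlap (log2 fold change -0.19, SE 0.072, limma adjusted p 0.396). *Gsk3b*, a kinase that marks JUN and other factors for destruction, was 5693, 5864 and 5795 in ND and 6017, 6377 and 6058 in HFD (log2 fold change 0.088, SE 0.057, limma adjusted p 0.633). These diets were separate, by less than the SD within HFD.

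The genes known as AP-1 targets had a larger median size of difference than the AP-1 members or the 4 lists of partners and regulators above. Of 18, 15 had values, 13 higher and 2 lower on average (median log2 fold change 0.20, median size 0.32). At an unadjusted p under 0.05 there were 6 higher and 1 lower by limma (5.4% and 5.18% of all genes), and 0 at an adjusted p. *Mmp12*, the macrophage elastase, had 7264, 8895 and 18134 normalized counts in ND and 21370, 36455 and 36815 in HFD. ND replicate 3 was over the other ND libraries and under all HFD libraries, and the HFD mean was 2.76 times that of ND (log2 fold change 1.54, SE 0.31, limma adjusted p 0.184). *Mmp13*, collagenase 3 and a standard AP-1 reporter gene, had 326, 351 and 488 in ND and 557, 786 and 696 in HFD (log2 fold change 0.81, SE 0.16, limma adjusted p 0.184). ND replicate 3 again lay between the other ND libraries and the HFD libraries.

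Other targets, named after their values were seen, shared the direction in part. *Mmp9* (125 ± 56.4 against 271 ± 44.6) and the heme oxygenase gene *Hmox1* (11771 ± 2300 against 17693 ± 1325) were higher in HFD without overlap, with limma adjusted p-values of 0.270 and 0.189. The integrin gene *Itgax* was 1481 ± 564 against 2681 ± 534, with overlap (limma adjusted p 0.270). *Spp1*, osteopontin, was 15955 ± 1754 against 12776 ± 1675, with overlap (log2 fold change -0.32, limma adjusted p 0.340). *Vim* (0.051), *Cd44* (0.070) and *Ccnd1* (0.045) had log2 fold changes under 0.1. Without ND replicate 3, 5 of the 15 passed a limma adjusted p of 0.05 (1.76% of all genes did), all higher in HFD: *Hmox1*, *Itgax*, *Mmp12*, *Mmp13* and *Mmp9*. Several of these genes also belong to other cells and programmes, *Mmp9* being on the osteoclast list too. Of that list's 6 genes with values, 5 were higher in HFD, from *Acp5* (log2 fold change 0.055) to *Mmp9* (1.21), and *Nfatc1* was lower (-0.15). All 6 neutrophil genes with values were higher on average in HFD as well (median log2 fold change 0.30, from 0.11 to 0.90), 1 of them without overlap, *Mmp8*. Without ND replicate 3, 2 osteoclast genes and 1 neutrophil gene also passed a limma adjusted p of 0.05, higher in HFD. With array weights 4 and 1 did (8.56% of all genes passed then). The part of either list in the target genes' differences was not tested.

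**Figure D4:**
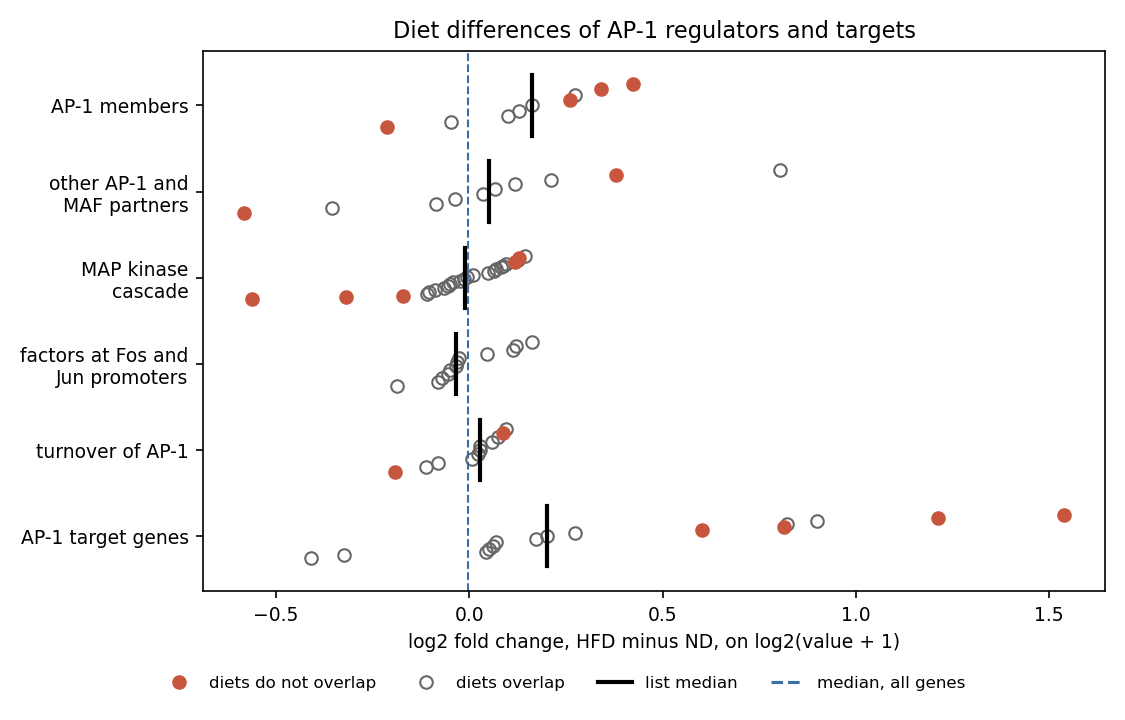
Log2 fold change, HFD minus ND (horizontal axis), of each gene with values in the 6 lists, red where the diets do not overlap and open where they do, with the median of each list (black) and of all genes (dashed). The AP-1 members and the AP-1 target genes have medians of 0.16 and 0.20, and the other lists lie between -0.033 and 0.051.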

How the data were processed

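Libraries were made with a stranded total RNA kit after ribosomal RNA removal, from 100 ng of RNA, and read as single ends of 75 bases, per the labels' protocols. STAR, Partek and mm10 are named in the submitters' processing notes, and the annotation, filter and scaling are not given in the sources used here. The deposited signal values were read from the numbers as gene counts divided by 1 size factor per library: in each library, dividing the values from 5 to 1000 by a single number left 57.0% to 58.4% of them whole (tolerance 0.02), whereas other divisors left 3.88% to 4.06%. Whole reads were thus recovered for only part of the values, and no count test was run. Estimated reads are values divided by that number. Intervals from them cover counting error only.

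The NC columns were assigned to ND, the remaining diet in the labels. No column was left unmatched. The diets (3 libraries each) were compared on log2(value + 1) by limma 3.58.1 (R 4.3.3; mean-variance trend, two-sided), with p-values adjusted by Benjamini-Hochberg over all 13232 genes at 0.05. The procedure was tested on simulated data with planted changes larger than any difference of the members. That test does not show how often differences of the members' size would be called. Named genes are the members, the 2 with the smallest p in each list, and the 3 nearest in pattern to *Fos*, *Jun* and *Atf3*. Any other was chosen after its values were seen, and some list members are not reported singly. Members, lists and tests were chosen with earlier results of these data known. Promoter windows come from RefSeq (GRCm38.p6, 9 of 9 members matched), and lengths and positions from GENCODE M21. Alternatives were another pseudocount (0.1), filters at 10 per library and a mean of 100, quantile and total scaling, no trend, array weights, a replicate block and leaving out each library.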

Additional observations from a re-analysis of the deposited data

How the results depend on the processing

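No member passed a limma adjusted p of 0.05 with a pseudocount of 0.1, either filter, quantile or total scaling, no trend, the replicate block or any library left out. Over the 9 members, 112 values were alike in sign and call, 5 gained a call, all with array weights, and 6 reversed. The reversals were *Fosb* (-0.15) and *Batf3* (0.099) with array weights, *Fosb* in fits without 1 library (range -0.14 to 0.34) and *Batf3* likewise (-0.14 to 0.054). Neither reversed under another scaling. *Fosb*, *Maff* and *Batf3* fell under the filter at a mean of 100 and had no value there. Array weights gave 5 members, 1133 genes in all, 3 partners, 2 kinases, 1 promoter factor (*Mef2c*), 1 turnover gene (*Zfp36*) and 7 targets past the threshold, each from 0. Without 1 library all genes ran from 0 to 233, targets from 0 to 5, and members whose diets did not overlap from 4 to 7, the highest each time without ND replicate 3. Fewer libraries leave less room for overlap, and over all genes that share ran from 18.8% to 35.9%. The cause was not tested.

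With the replicate block (replicate number added to the model) 31 genes passed, 2 of them targets (*Mmp12*, limma adjusted p 0.0315, and *Itgax*) and 0 members. Deviations of libraries with a shared number had correlations of 0.089, -0.11 and 0.027, which does not make them pairs. Depth limits *Fosb*, *Maff* and *Batf3*, with about 34 to 105 estimated reads per library.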

Other observations

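Dividing each value by the worth of 1 read gave whole reads (within 0.05) in all 6 libraries for *Fos*, *Fosb*, *Fosl2*, *Junb*, *Maff* and *Batf3*. *Jund* was whole in 3 libraries, *Atf3* in 1 and *Jun* in 0, so these 3 members hold fractional reads.

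*Batf3* and *Atf3*, neighbours on chromosome 1 with 1 protein-coding gene annotated between them, stood far apart in level, at 58.7 and 8956 normalized counts on average over the 6 libraries.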
